A study of Homo sapiens with 6 samples.

Results

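The J-domain cochaperones, also called HSP40 proteins, are described here in HK-2, an established cell line derived from the proximal tubule of the human kidney. They were chosen as every protein-coding gene whose symbol is DNAJA, DNAJB, or DNAJC with a number. *DNAJB9*, *DNAJB11*, *DNAJC3*, and *DNAJC10*, whose proteins work in the lumen of the endoplasmic reticulum, were set apart. This gave 39 of the 29483 genes of the expression table, with 4 in class A, 9 in class B, and 26 in class C. *DNAJB8* was not analysed here. All cells had been kept for 7 days in high glucose (HG) medium with 25 mM glucose. The 3 control replicates received no TEPP-46, and the 3 case replicates received 10 μM TEPP-46, a small molecule activator of the pyruvate kinase PKM2, for 1 day. The study asked which transcripts TEPP-46 alters in cells under HG. No normal-glucose group enters this comparison, the sources used here do not say whether the control cells received the solvent, and 1 cell line stands for the tubule.

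Expression is given as FPKM, the reads of a gene per kilobase of its exons with the reads of its library scaled to a common total, as deposited. The reads per library behind these values were not counted but estimated from the FPKM and annotated exon lengths. The estimates were 18634891, 17924033, and 17378710 in control replicates 1, 2, and 3 and 16711934, 16047243, and 15363254 in case replicates 1, 2, and 3. Between the groups, FPKM divided by a scaling factor per library were compared on the scale of log2(value + 0.1) by limma. The 13599 genes whose FPKM averaged 0.5 or more over the libraries were tested. Gene positions are those of GENCODE 44 on GRCh38. Genes with a Benjamini-Hochberg adjusted p of at most 0.05 are called changed. The study describes its replicates as independent and as treated separately, without saying when the cultures were split, and the p-values measure the spread between these libraries.

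The epithelial identity of the cells was checked on 14 marker genes, of which 5 were expressed at a mean FPKM of at least 0.5. The keratin *KRT19* was the most abundant at 346, and the others were the keratins *KRT8* and *KRT18*, the epithelial adhesion gene *EPCAM*, and *VIM*. The last encodes vimentin, an intermediate filament of mesenchymal cells that cultured epithelial cells also make, and does not mark epithelium. Markers of the differentiated proximal tubule stood at or near 0, with mean FPKM of 0.00114 for the endocytic receptor *LRP2*, 0.0236 for its partner *CUBN*, and 0.0653 for the water channel *AQP1*. The summed FPKM of the list was 1013, 993, and 990.4 in the control libraries and 1051, 837, and 980.1 in the case libraries. Without *VIM* it was 922, 896, and 893 in the control libraries and 901, 718, and 818 in the case libraries, where case replicates 2 and 3 were below every control library. *VIM* itself rose in the case group (log2 fold change 0.66, SE 0.13, adjusted p = 0.0204). *KRT8* was lower in each case library without passing the threshold (log2 fold change -0.27, SE 0.11, adjusted p = 0.125). The defining markers of other cell types were also near 0, with a summed FPKM of at most 0.0886 over 4 endothelial genes. Over 4 fibroblast and smooth muscle genes, led by *COL1A1*, the sum was 0.486, 0.494, and 0.477 in the control libraries and 0.234, 0.327, and 0.364 in the case libraries. Of 2 leukocyte genes, *CD68* averaged 0.00904. *CD14*, with a mean of 0.535, was lower in each case library (log2 fold change -1.24, SE 0.31, adjusted p = 0.0384). Its mean was 0.806 over the control libraries and 0.264 over the case libraries, on 7 to 31 reads per library. *CD14* thus passed the limit of 0.5 for testing only through its control values, and nothing further is read from its call. The part of these markers in the results was not tested.

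J-domain proteins are the partners that bring substrates to HSP70 and set off its ATPase. The J domain, with its invariant histidine, proline, and aspartate motif, docks on HSP70 carrying ATP, and hydrolysis then closes HSP70 on the bound substrate. Nucleotide exchange factors release ADP, so that the substrate can leave. Class A members carry the J domain, a glycine- and phenylalanine-rich stretch, and a zinc finger region. Class B members lack the zinc finger region, and class C members share only the J domain and serve a wide range of places, such as clathrin-coated vesicles, the mitochondrial import motor, the spliceosome, and the ribosome. Some class A and B genes are inducible by heat through HSF1, which binds heat shock elements made of inverted GAA units.

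Because several of these genes belong to the heat shock response, their promoters were searched for a pair of inverted units, written GAANNTTC or TTCNNGAA. Each of these is its own reverse complement, so that 1 search covers both strands, and a GAANNTTC can share a unit with a TTCNNGAA. RefSeq promoters on GRCh38.p14 were matched for 35 of the 39 members (47 promoters). *DNAJC1*, *DNAJC22*, *DNAJC24*, and *DNAJC5B* were not matched. In the 250 bases before the start site, 7 of the 47 member promoters (14.9%) held a match, beside 4067 of all 35116 promoters (11.6%). The genes were *DNAJA1*, *DNAJA4*, *DNAJB1*, *DNAJB4*, *DNAJB6*, *DNAJB7*, and *DNAJC15*. Stretches of 30 bases are shown for the members of classes A and B with a match whose expression is described here, and for 3 HSP70 genes beside them, with the matching letters in capitals, 5′ to 3′ along the gene.
DNAJA1: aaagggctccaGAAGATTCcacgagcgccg
DNAJA4: ggaacctccgcGAAGGTTCtaggcctttgt
DNAJA4: gtctccttgcgGAAGCTTCcgccggcgccg
DNAJB1: ggcgggctctgGAAGCTTCcgccggacggg
DNAJB1: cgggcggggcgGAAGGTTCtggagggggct
DNAJB4: agcatttgctgTTCTAGAAagtacagagac
DNAJB6: aagagccgaGAACCTTCGCGAAggtggggc
HSPA8: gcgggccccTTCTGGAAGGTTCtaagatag
HSPA8: ggcgagcttGAAAGTTCCAGAAcgctgcgg
HSPA1A: cgaaaaccctgGAATATTCccgacctggca
HSPA1B: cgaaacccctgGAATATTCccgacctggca

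The match in *DNAJA1* lies 198 bases before the start site in chr9:33025064-33025093 on the plus strand. *DNAJA4* holds its pair at 91 and 52 bases before the start, in chr15:78264460-78264489 and chr15:78264499-78264528 on the plus strand. The pair in *DNAJB1* lies 47 and 77 bases before the start, in chr19:14518426-14518455 and chr19:14518456-14518485 on the minus strand. For *DNAJB4* the distance is 98 bases (chr1:78004830-78004859, plus strand), and for *DNAJB6* it is 131 bases (chr7:157336864-157336893, plus strand). *DNAJB6* alone among the matched members had 3 alternating units in this window (GAANNTTCNNGAA or TTCNNGAANNTTC), which 0.441% of all promoters held. The promoters of 5 HSP70 family genes called lower were searched too. Of these *HSPA8* has 3 units at 55 and 230 bases before its start (chr11:123062171-123062200 and chr11:123062346-123062375, minus strand). *HSPA1A* and *HSPA1B* each hold a single pair, 106 and 105 bases before the start (chr6:31815426-31815455 and chr6:31827622-31827651, plus strand), and the windows of *HSPA2* and *HSPH1* do not hold these letters. The start sites are those of RefSeq, and the ones of *DNAJA4*, *DNAJB1*, *DNAJB4*, *DNAJB6*, and *HSPA8* lie inside the gene spans. The windows of *DNAJB5*, *DNAJC14*, and *DNAJC9* do not hold these letters. Such matches describe letters only, and binding was not measured. The HSP70 genes searched were those called lower, and promoters of family genes not called are not described here. Nothing is therefore read from the HSP70 matches about the calls.

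Of the 39 members, 33 passed the filter on low values (4 of class A, 7 of class B, and 22 of class C). The other 6 were close to silent. *DNAJB7* had 1 read in control replicate 2 and 0 elsewhere, *DNAJC5B* had 1 read in case replicate 1 and 0 elsewhere, and *DNAJC5G* had 3 and 1 reads in control replicates 1 and 2 and 0 in the other libraries. *DNAJB13*, of sperm and motile cilia, had at most 30 reads, *DNAJC22* at most 20, and *DNAJC12* at most 11 in any library. Without molecular identifiers, reads are not counts of molecules.

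In the case group 3 J-domain genes fell and 1 rose. *DNAJB4* and *DNAJB5*, both close relatives of the heat-inducible *DNAJB1*, and *DNAJC14*, a J-domain protein of the endoplasmic reticulum membrane, were lower, and *DNAJC9*, a histone chaperone, was higher. These 4 of 33 make 12.1%, beside 1792 of all tested genes (13.2%), so that the share of members called was near the background. In bulk RNA, less of a transcript per cell and fewer cells that carry it cannot be told apart. Upward calls made up 7.34% and downward calls 5.84% of all tested genes. The median log2 fold change was 0.019 over the tested members and -0.002 over all tested genes, with 18 members above 0 and 15 below. At an unadjusted p under 0.05 there were 9 members (4 higher and 5 lower), 27.3% of those tested, beside 33.1% of all genes. The values of the groups did not overlap for 14 members (42.4%), beside 39.9% of all tested genes. Of these, 8 were lower in the case group, beside 20.4% of all genes, and 6 were higher, beside 19.5%.

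**Figure D1:**
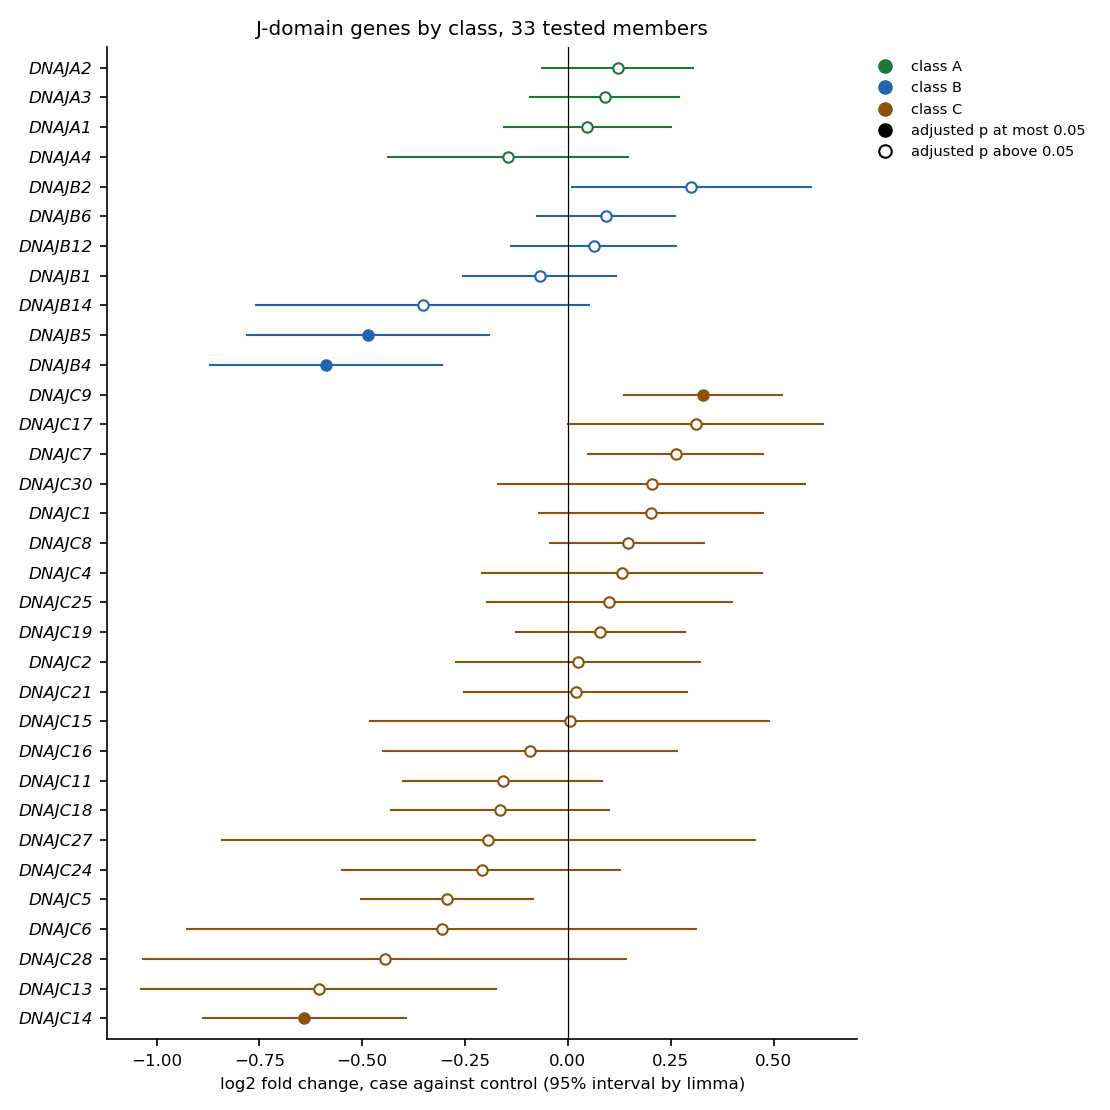
Log2 fold change of each tested J-domain gene, case against control (x axis), with 95% intervals by limma (3 libraries per group); members are grouped by class on the y axis and filled points mark an adjusted p of at most 0.05. The filled points are *DNAJB4*, *DNAJB5*, and *DNAJC14* below 0 and *DNAJC9* above 0.

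The direction of calls over all genes turned on the scaling between libraries. With the scaling used here, 998 genes were higher and 794 lower. On FPKM as deposited the split was 662 and 1124, and on TPM it was 383 and 2387, with the median over all genes moved to -0.08 and -0.19. Among the members, calls on these scales were 0 higher with 4 lower, and 0 higher with 6 lower. *DNAJB4*, *DNAJB5*, and *DNAJC14* were lower and *DNAJC9* was higher than control under all 3 scales, but *DNAJC9* passed the threshold only under the first, with log2 fold changes of 0.33, 0.25, and 0.13.

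The libraries did not weigh equally on the calls. The case libraries differed more among themselves than the control libraries did, with a median SD over the tested members of 0.15 and 0.07 on the log2 scale, and of 0.19 and 0.09 over all tested genes. Case replicate 1 was the lowest case library in 15 of 33 members (45.5%), beside 39.0% of all genes. Leaving out any 1 control replicate or case replicate 3 ended every member's call. Without control replicates 1, 2, and 3, limma called 0 members (5, 6, and 6 at an unadjusted p under 0.05) and 105, 69, and 87 of all genes. Without case replicate 3, limma called 0 members (8 at an unadjusted p under 0.05) and 192 of all genes. Without case replicate 1 there were 5 members called, and without case replicate 2 there were 7, beside 2296 and 3495 of all genes.

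No class A gene was called. None of the 4 genes passed the threshold, and none had an unadjusted p under 0.05, by limma on the FPKM values or by voom on the reads. Over all tested genes, limma called 13.2%, voom called 20.3%, and 33.1% had an unadjusted p under 0.05 by limma. On so few genes the count of 0 is a description only. The class had a median log2 fold change of 0.07, whose sign turned on other scales (-0.01 on FPKM as deposited, -0.13 on TPM, and -0.04 after quantile normalization).

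*DNAJA1* (ENSG00000086061, chr9:33025273-33039907, plus strand), the most abundant class A gene and a general cytosolic partner of HSPA8, had FPKM of 60.1, 59.9, and 59.3 in control replicates 1, 2, and 3 and 50.4, 62.5, and 63.7 in case replicates 1, 2, and 3. The control libraries were close together, case replicate 1 was the lowest of all (also after scaling), and the other two case libraries were the highest. The difference was smaller than the spread between replicates (log2 fold change 0.05, SE 0.09, 95% interval -0.16 to 0.25, adjusted p = 0.744). *DNAJA3* (ENSG00000103423, chr16:4425805-4456775, plus strand), which works in the mitochondrial matrix, had FPKM of 28.3, 28.9, and 28.9 in control replicates 1, 2, and 3 and 30.2, 28.7, and 28.0 in case replicates 1, 2, and 3. As deposited these values overlapped, whereas after scaling each case value was above each control value, by a small margin (log2 fold change 0.09, SE 0.08, 95% interval -0.09 to 0.27, adjusted p = 0.463). The second cytosolic gene of the class, *DNAJA2* (ENSG00000069345, chr16:46955362-46973674, minus strand), had 26.2, 26.4, and 24.5 in control replicates 1, 2, and 3 and 23.9, 28.1, and 27.7 in case replicates 1, 2, and 3. As deposited, case replicate 1 was again the lowest, and the groups overlapped on both scales (log2 fold change 0.12, SE 0.08, 95% interval -0.06 to 0.30, adjusted p = 0.323). *DNAJA4* (ENSG00000140403, chr15:78264086-78282196, plus strand) was the least abundant, at 2.74, 2.57, and 3.14 in control replicates 1, 2, and 3 and 2.14, 2.77, and 2.32 in case replicates 1, 2, and 3. Its case replicate 2 lay among the controls (log2 fold change -0.15, SE 0.13, 95% interval -0.44 to 0.15, adjusted p = 0.457).

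In class B, the most abundant gene, *DNAJB1*, was not called, and 2 of its close relatives fell. As deposited, *DNAJB1* was also lower in each case library, and limma did not test whether these genes differ in their change. Of 7 tested members, 2 were called lower (28.6%), beside 5.84% of all tested genes, and 0 higher. On so few genes this share is a description only. In the upward direction, limma placed 1 gene (*DNAJB2*) under an unadjusted p of 0.05, beside 2288 higher of all 13599 tested genes. Voom called 0 higher, beside 1271 higher of all tested genes. In either direction, 42.9% of the 7 members had an unadjusted p under 0.05 by limma, beside 33.1% of all tested genes. The median log2 fold change was -0.07, with 3 members above 0 and 4 below.

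*DNAJB1* (ENSG00000132002, chr19:14514769-14560391, minus strand), the main heat-inducible HSP40 of the cytosol, had FPKM of 59.8, 58.5, and 61.3 in control replicates 1, 2, and 3 and 57.1, 53.1, and 52.3 in case replicates 1, 2, and 3. As deposited, the case values lay below the control values. After scaling they overlapped, with case replicate 1 above the controls (log2 fold change -0.07, SE 0.08, 95% interval -0.26 to 0.12, adjusted p = 0.591). Between 2948 and 4094 reads stood behind each value, and *DNAJB1* passed the threshold only on TPM (log2 fold change -0.27, adjusted p = 0.0276).

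*DNAJB4* (ENSG00000162616, chr1:77979175-78017964, plus strand) had FPKM of 20.2, 22.9, and 20.5 in control replicates 1, 2, and 3 and 10.8, 15.8, and 13.9 in case replicates 1, 2, and 3. All case libraries were below all control libraries, and case replicate 1 was the lowest. The case level was 0.666 times the control level on the log2(value + 0.1) scale (log2 fold change -0.59, SE 0.12, 95% interval -0.87 to -0.31, adjusted p = 0.0242). *DNAJB4* stayed called without case replicates 1 and 2 (adjusted p = 0.0206 and 0.0105). Its adjusted p was 0.0836, 0.108, 0.086, and 0.0777 without control replicates 1, 2, and 3 and case replicate 3, with log2 fold changes of -0.62, -0.53, -0.61, and -0.61.

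*DNAJB5* (ENSG00000137094, chr9:34989641-34998900, plus strand) had FPKM of 4.96, 5.30, and 5.47 in control replicates 1, 2, and 3 and 4.03, 3.53, and 3.05 in case replicates 1, 2, and 3. Again every case value was below every control value, but here case replicate 3 was the lowest and case replicate 1 the closest to the controls. Expression in the case group was 0.714 times the control level (log2 fold change -0.49, SE 0.13, 95% interval -0.78 to -0.19, adjusted p = 0.0448), on 276 to 560 reads per library. This call was near the threshold and was kept, among the fits that leave out 1 library, only without case replicate 1 (adjusted p = 0.0152). The adjusted p was 0.119, 0.151, and 0.144 without control replicates 1, 2, and 3, and 0.0578 and 0.128 without case replicates 2 and 3.

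The paired units shown above stand before both *DNAJB1* and *DNAJB4*, and not before *DNAJB5*. Of the 6 tested members with such a match, 1 was called (*DNAJB4*), where 12.1% of all tested members were, so nothing is read from this count about the motif.

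*DNAJB14* (ENSG00000164031, chr4:99896248-99946618, minus strand), anchored in the membrane of the endoplasmic reticulum with its J domain in the cytosol, had 3.41, 3.57, and 3.31 in control replicates 1, 2, and 3 and 1.90, 3.42, and 2.47 in case replicates 1, 2, and 3. Case replicate 1 was far below the controls and case replicate 2 lay among them (log2 fold change -0.35, SE 0.18, 95% interval -0.76 to 0.05, adjusted p = 0.199). The value was -0.18 without case replicate 1 (adjusted p = 0.394), -0.54 without case replicate 2, where it was called (adjusted p = 0.0252), and -0.07 after gene length correction. *DNAJB2*, which carries ubiquitin-interacting motifs, had 6.26, 5.88, and 6.07 in the control libraries and 8.27, 6.38, and 6.80 in the case libraries. All case values were above all control values, led by case replicate 1, without passing the threshold (log2 fold change 0.30, SE 0.13, adjusted p = 0.142). *DNAJB6*, known for holding polyglutamine proteins soluble, and *DNAJB12*, the membrane relative of *DNAJB14*, had log2 fold changes of 0.09 (adjusted p = 0.405) and 0.06 (adjusted p = 0.652). The level of *DNAJB6* in FPKM was 12.2, 12.6, and 12.6 in the control libraries and 12.3, 12.8, and 12.8 in the case libraries. As deposited these values overlapped, whereas after scaling each case value was above each control value, with 12.6 as the lowest in the case group and 12.2 as the highest in the control group. Its log2 fold change was 0.40 after gene length correction (adjusted p = 0.0512) and -0.11 on TPM, and it was called in none of the alternatives.

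**Figure D2:**
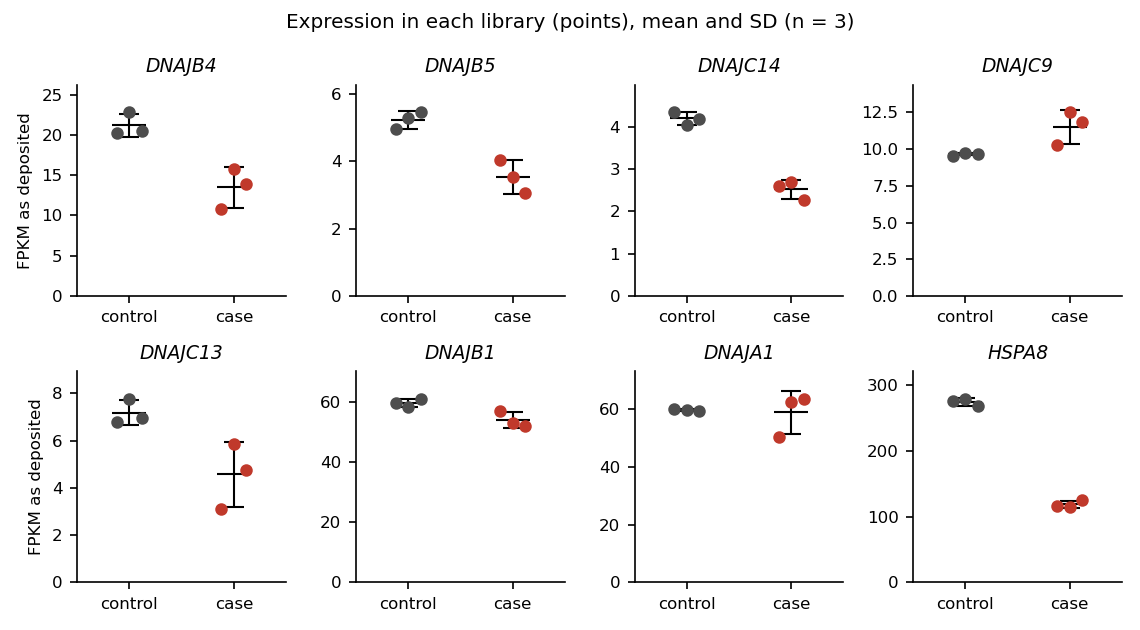
FPKM as deposited (y axis, from 0) in the control and case libraries (x axis) for *DNAJB4*, *DNAJB5*, *DNAJC14*, *DNAJC9*, *DNAJC13*, *DNAJB1*, *DNAJA1*, and the HSP70 gene *HSPA8*; each point is 1 library, and bars give the mean and SD (n = 3). The case points of *DNAJB4*, *DNAJB5*, *DNAJC14*, *DNAJC13*, *DNAJB1*, and *HSPA8* all lie below the control points, those of *DNAJC9* lie above, and those of *DNAJA1* lie on both sides.

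Class C, the largest, had 1 gene lower and 1 higher of 22 tested (9.09%, beside 13.2% of all tested genes), with a median log2 fold change of 0.01 that was -0.18 on TPM. At an unadjusted p under 0.05 there were 3 lower and 3 higher (27.3%, beside 33.1% of all tested genes). Its members are taken in turn by the place where their proteins work.

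At the endoplasmic reticulum membrane, 1 of 7 tested J-domain genes fell (14.3%, beside 13.2% of all tested genes called either way) and 0 rose. At an unadjusted p under 0.05 by limma, 1 was lower and 0 were higher (14.3%, beside 33.1% of all tested genes). Voom called 0 higher, beside 1271 higher of all 13599 tested genes. On 7 genes these counts are a description only. *DNAJC14* (ENSG00000135392, chr12:55820960-55830824, minus strand), known for guiding a dopamine receptor to the cell surface, had FPKM of 4.34, 4.05, and 4.19 in control replicates 1, 2, and 3 and 2.60, 2.69, and 2.27 in case replicates 1, 2, and 3. The control values were close together and the highest case value was well below the lowest control value. The case level of *DNAJC14* was 0.641 times the control level (log2 fold change -0.64, SE 0.11, 95% interval -0.89 to -0.39, adjusted p = 0.015), on 146 to 339 reads per library. The call held without case replicates 1 and 2 (adjusted p = 0.0143 and 0.0113). The adjusted p was 0.0758, 0.0743, 0.0738, and 0.0555 without control replicates 1, 2, and 3 and case replicate 3, while the log2 fold change stayed between -0.69 and -0.56 in all 6 cases. *DNAJC14* was called in all 15 alternatives that used all libraries. Its exons share 973 bases with the same-strand protein-coding gene ENSG00000257390, which was not analysed here. On the opposite strand they share 920 bases with *ORMDL2* and 541 with *TMEM198B*. *ORMDL2* had a mean FPKM of 3.45 (adjusted p = 0.402) and *TMEM198B* of 0.697 (adjusted p = 0.571). Whether the counting used strand is not given in the sources used here, so reads in the shared bases cannot be assigned. The other membrane members of class C ran from -0.17 (*DNAJC18*) through -0.09 (*DNAJC16*) and 0.10 (*DNAJC25*) to 0.20 (*DNAJC1*), all with an adjusted p of at least 0.27.

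Of the 3 nuclear genes tied to splicing and histones, 1 rose (7.34% of all tested genes did). At an unadjusted p under 0.05 by limma there were 2 higher, beside 2288 higher of all 13599 tested genes. On 3 genes these counts are a description only. The log2 fold changes of the 3 were 0.15, 0.31, and 0.33 with the scaling used here. *DNAJC9* (ENSG00000213551, chr10:73183362-73247255, minus strand), a chaperone of histones H3 and H4, had FPKM of 9.57, 9.71, and 9.65 in control replicates 1, 2, and 3 and 10.3, 12.5, and 11.8 in case replicates 1, 2, and 3. The control libraries were nearly level, and all case libraries were above them, case replicate 1 by the least. The case level of *DNAJC9* was 1.26 times the control level (log2 fold change 0.33, SE 0.08, 95% interval 0.14 to 0.52, adjusted p = 0.0411), on 663 to 795 reads per library. The call was kept without case replicates 1 and 2 (adjusted p = 0.0169 and 0.0424). Leaving out control replicates 1, 2, and 3 and case replicate 3 in turn ended it (adjusted p = 0.152, 0.152, 0.138, and 0.113), while the log2 fold change remained at 0.32, 0.33, 0.33, and 0.31. The exons of *DNAJC9* share 1819 bases with *FAM149B1* on the opposite strand, which had a mean FPKM of 4.10. *FAM149B1* was also higher in each case library after scaling (log2 fold change 0.25, unadjusted p = 0.0487, adjusted p = 0.149), and its part in the *DNAJC9* value was not tested. *DNAJC8* (ENSG00000126698, chr1:28199456-28233029, minus strand), of the spliceosome, was the most abundant of all members, with 64.5, 62.6, and 68.9 in control replicates 1, 2, and 3 and 70.0, 65.6, and 69.8 in case replicates 1, 2, and 3. The groups overlapped (log2 fold change 0.15, SE 0.08, 95% interval -0.04 to 0.33, adjusted p = 0.251), and on TPM the log2 fold change was -0.05. *DNAJC17*, another splicing factor, had 1.93, 1.78, and 1.99 in the control libraries and 2.34, 2.00, and 2.46 in the case libraries, each case value above each control value (log2 fold change 0.31, SE 0.14, adjusted p = 0.151).

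Among the genes of vesicles and endosomes, 3 of 5 could be tested and 0 were called by limma, with a median log2 fold change of -0.31. At an unadjusted p under 0.05 there were 2 lower, beside 2207 lower of all 13599 tested genes (33.1% in either direction). By voom on the reads, *DNAJC13* and *DNAJC5* were called lower, beside 1483 lower of all tested genes. On 3 genes these counts are a description only. *DNAJC13* (ENSG00000138246, chr3:132417502-132539032, plus strand), which works with HSPA8 on endosomes, had FPKM of 6.80, 7.78, and 6.97 in control replicates 1, 2, and 3 and 3.12, 5.86, and 4.75 in case replicates 1, 2, and 3. Every case value was below every control value, but case replicate 1 was far below the others. The difference was large and its error too (log2 fold change -0.61, SE 0.19, 95% interval -1.04 to -0.18, adjusted p = 0.0669), and without case replicate 1 it was -0.38 (adjusted p = 0.0572). It was called without case replicate 2 (-0.78, adjusted p = 0.0194). *DNAJC5* (ENSG00000101152, chr20:63895126-63936031, plus strand), the cysteine string protein of secretory vesicles, had 36.9, 35.2, and 34.8 in control replicates 1, 2, and 3 and 29.2, 28.4, and 25.0 in case replicates 1, 2, and 3. The case libraries were all lower, and case replicate 3 was the lowest (log2 fold change -0.29, SE 0.09, 95% interval -0.50 to -0.09, adjusted p = 0.0669). It passed the threshold without case replicate 1 (log2 fold change -0.36, adjusted p = 0.024). *DNAJC6*, or auxilin, which strips clathrin from vesicles together with HSPA8, had 0.995, 1.20, and 1.40 in the control libraries and 1.08, 1.11, and 0.580 in the case libraries. Only case replicate 3 was clearly low, and the difference was within the spread (log2 fold change -0.31, SE 0.27, adjusted p = 0.458).

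Over all tested genes, limma called 13.2%, voom called 20.3%, and 33.1% had an unadjusted p under 0.05 by limma. None of the 5 mitochondrial J-domain genes was called by limma or voom (0 at an unadjusted p under 0.05). On so few genes this is a description only. The 5 genes had a median log2 fold change of 0.08. Beside *DNAJA3*, they were *DNAJC19* (0.08) and *DNAJC15* (0.01) of the import motor, *DNAJC11* (-0.16), which is linked to the cristae complex, and *DNAJC30* (0.20). Of 3 genes tied to the ribosome and translation, 0 were called by either tool (0 at an unadjusted p under 0.05), again a description only. Their log2 fold changes were 0.02 for *DNAJC2*, which sits on the ribosome with HSPA14, 0.02 for *DNAJC21*, of large subunit maturation, and -0.21 for *DNAJC24*, of diphthamide synthesis. *DNAJC7*, which links HSP70 with HSP90 through its tetratricopeptide repeats, had 6.77, 6.73, and 6.47 in the control libraries and 6.86, 7.58, and 8.39 in the case libraries. All its case values were above all its control values without passing the threshold (log2 fold change 0.26, SE 0.09, adjusted p = 0.0941). *DNAJC7* was called after gene length correction (adjusted p = 0.0295), where *DNAJC9* was not (adjusted p = 0.0611). *DNAJC28* (ENSG00000177692, chr21:33488055-33491716, minus strand) had one of the larger differences of class C on few reads (19 to 48 per library), with FPKM of 1.04, 1.03, and 1.02 in control replicates 1, 2, and 3 and 0.458, 0.753, and 0.943 in case replicates 1, 2, and 3. The case libraries were lower but spread widely, with case replicate 1 the lowest and case replicate 3 close to the controls (log2 fold change -0.45, SE 0.26, 95% interval -1.03 to 0.14, adjusted p = 0.258), and without case replicate 1 the value was -0.21. The remaining tested members, *DNAJC4* and *DNAJC27*, had log2 fold changes of 0.13 and -0.19 (adjusted p = 0.571 and 0.667).

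**Figure D3:**
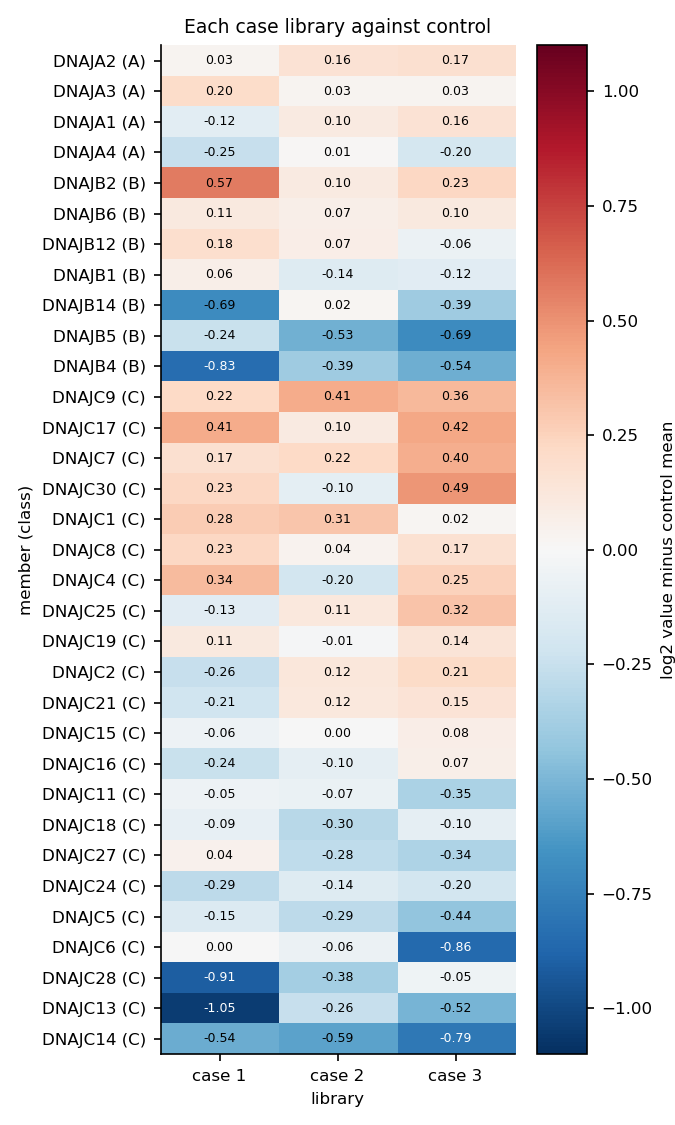
Log2 value (scaled FPKM + 0.1) of each case library minus the mean of the 3 control libraries (colour and number) for the 33 tested members (rows, class in parentheses) and the 3 case libraries (columns). *DNAJC14*, *DNAJB4*, *DNAJB5*, *DNAJC13*, and *DNAJC5* are below 0 in all 3 case libraries, while *DNAJC13*, *DNAJC28*, and *DNAJB4* are darkest in case replicate 1.

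The summed level of J-domain transcripts differed by less than the spread between libraries. Summed over the 39 members, scaled FPKM were 422, 419.9, and 424 in the control libraries and 423, 416, and 423 in the case libraries, or 422 ± 2.25 and 421 ± 4.37 (SD, n = 3). As deposited the sums were 433, 434, and 439.8 in the control libraries and 399, 420.0, and 417 in the case libraries, so that the case libraries were lower on that scale. A share of the pool within a library does not depend on the scaling. Class A held 27.1%, 27.1%, and 26.4% in the control libraries and 26.7%, 29.1%, and 29.2% in the case libraries, with case replicate 1 among the controls. Class B held 27.8%, 28.2%, and 28.0% in the control libraries and 27.2%, 25.9%, and 24.9% in the case libraries, with all case libraries below all control libraries. The share of class C was 45.2%, 44.7%, and 45.6% in the control libraries and 46.1%, 45.0%, and 45.9% in the case libraries, with overlapping groups. *DNAJB4* made up 4.66%, 5.27%, and 4.67% in the control libraries and 2.71%, 3.77%, and 3.33% in the case libraries, and no case library reached a control library. The share of *DNAJC5* was 8.51%, 8.10%, and 7.91% in the control libraries and 7.32%, 6.77%, and 6.01% in the case libraries, again without overlap. The 5 most abundant genes (*DNAJC8*, *DNAJA1*, *DNAJB1*, *DNAJC5*, and *DNAJA3*) together held 56.4% to 57.6% in the control libraries and 56.7% to 59.4% in the case libraries. The control FPKM of tested members ran from 0.638 (*DNAJC27*) to 65.3 (*DNAJC8*).

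**Figure D4:**
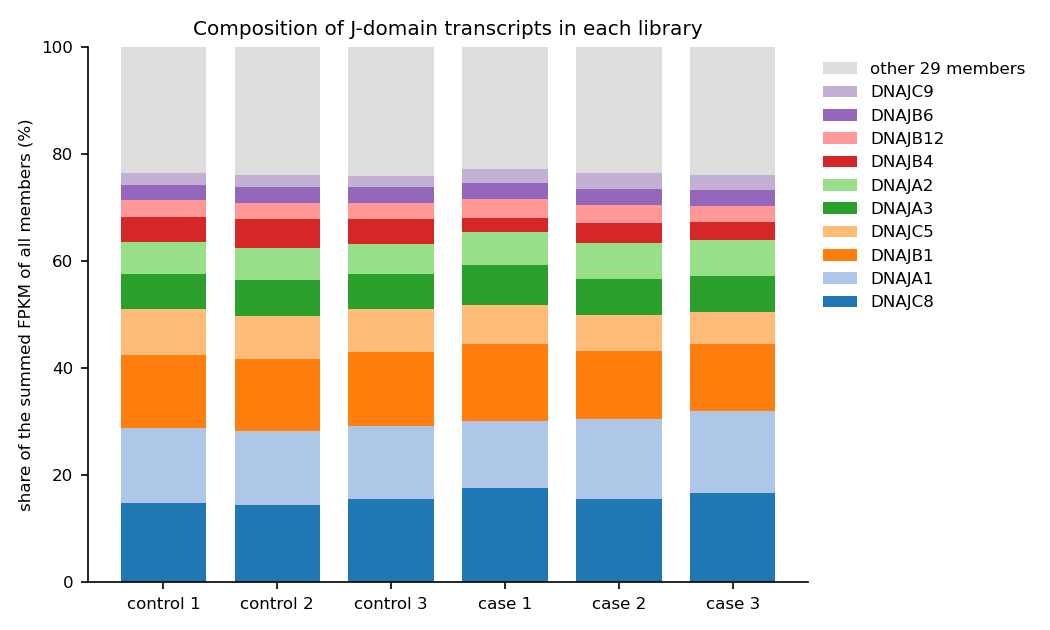
Share of the summed FPKM of all 39 J-domain genes (y axis, percent) held by the 10 most abundant genes and by the other 29 together, in each of the 6 libraries (x axis). The 5 lowest blocks hold 56.4% to 59.4% in every library, and the *DNAJB4* block is thinner in the case libraries.

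A larger share of the HSP70 genes than of the J-domain genes was called. In a list of 14 HSP70 family genes (without the endoplasmic reticulum member *HSPA5*), 12 were tested, of which 5 fell (41.7%, beside 5.84% of all tested genes) and 0 rose by limma. At an unadjusted p under 0.05 there were 7 lower and 2 higher (9 of 12, beside 33.1% of all tested genes). Voom called 7 lower and 0 higher, beside 1483 lower and 1271 higher of all 13599 tested genes. *HSPA8*, the constitutive cytosolic HSP70 that works with *DNAJA1*, *DNAJB1*, *DNAJC5*, *DNAJC6*, and *DNAJC13*, had FPKM of 275, 279, and 268 in control replicates 1, 2, and 3 and 116, 115, and 124 in case replicates 1, 2, and 3. The groups lay far apart, and the libraries of each were close together (log2 fold change -1.13, SE 0.07, 95% interval -1.30 to -0.96, adjusted p = 0.00152). The stress-inducible *HSPA1A* fell (log2 fold change -0.80, SE 0.11, adjusted p = 0.00909), and so did its near-identical neighbour *HSPA1B* (log2 fold change -1.02, SE 0.09, adjusted p = 0.00217). Reads can be split between this pair in an uncertain way. Also lower were *HSPA2* (log2 fold change -1.24, SE 0.10, adjusted p = 0.00197) and *HSPH1*, an HSP110 that also exchanges nucleotide (log2 fold change -0.44, SE 0.11, adjusted p = 0.041). The mitochondrial *HSPA9*, the second most abundant, had a log2 fold change of 0.22 (adjusted p = 0.102).

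Of 11 nucleotide exchange factors, all tested, 2 rose and 0 fell by limma (18.2%, beside 13.2% of all tested genes in either direction). At an unadjusted p under 0.05 there were 3 higher and 1 lower genes (36.4%, beside 33.1%), so that both shares were near the background. Voom called 2 higher and 1 lower (*HYOU1*), beside 20.3% of all tested genes in either direction. The 2 were *GRPEL2* of mitochondria (log2 fold change 0.54, SE 0.14, adjusted p = 0.0415) and *SIL1* of the endoplasmic reticulum (log2 fold change 0.46, SE 0.10, adjusted p = 0.0266). The most abundant, *BAG6* and *HSPBP1*, had log2 fold changes of -0.12 and 0.16 (adjusted p = 0.377 and 0.359). HSP70 genes and exchange factors together gave 7 calls of 23 tested (30.4%), beside 13.2% of all genes and 12.1% of the J-domain genes, where 5 of the 7 calls were HSP70 genes, and this contrast of lists is a description without a test. In a list of 5 genes of HSP90 and its links to HSP70, limma called 0 (0 at an unadjusted p under 0.05), and voom called 0. On so few genes this is a description only, beside 13.2% and 20.3% of all tested genes called by limma and voom. *HSP90AB1* and *HSP90AA1*, with mean FPKM of 1089 and 353, had log2 fold changes of 0.01 and 0.18 (adjusted p = 0.921 and 0.338), and *STUB1*, a ubiquitin ligase that binds both chaperones, had 0.10 (adjusted p = 0.749).

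**Figure D5:**
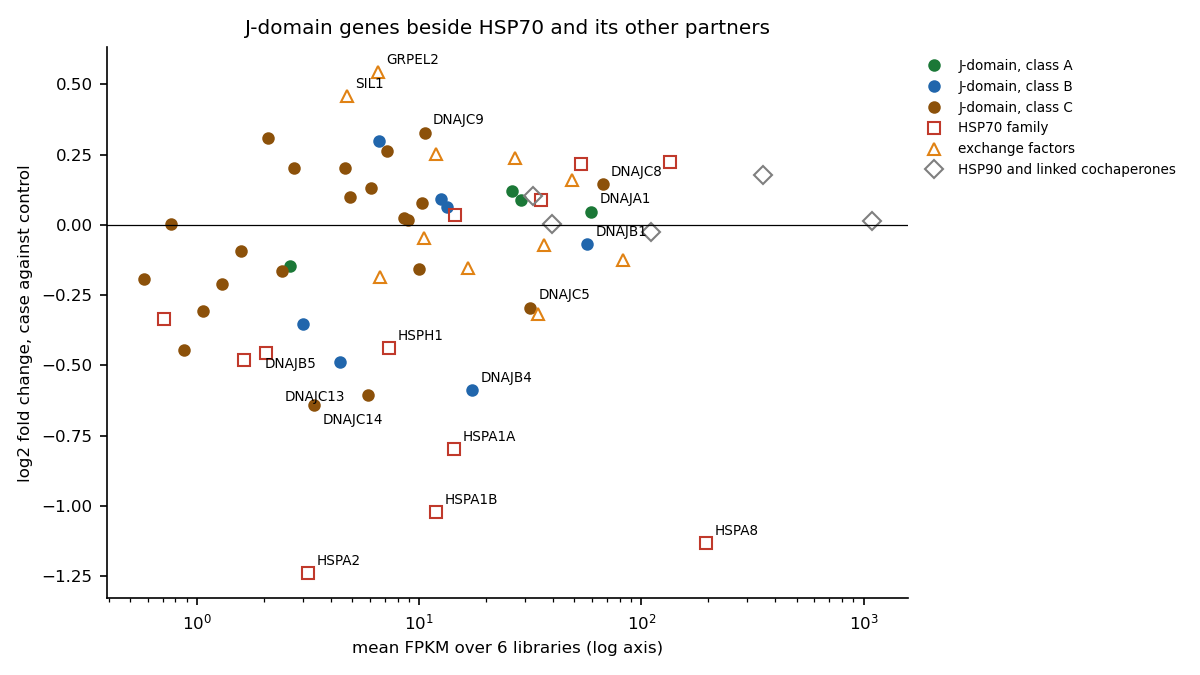
Log2 fold change, case against control (y axis), against the mean FPKM over 6 libraries on a log axis (x axis) for the tested J-domain genes (filled circles by class), HSP70 family genes (squares), exchange factors (triangles), and HSP90 with linked cochaperones (diamonds); each point is 1 gene. *HSPA8* lies at -1.13 near a mean of 196, while *DNAJB1*, *DNAJA1*, and *DNAJC8* lie between -0.07 and 0.15.

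The balance between *HSPA8* and its main cochaperones was read within each library, where the scaling cancels. The ratio of *HSPA8* to *DNAJB1* in FPKM was 4.60, 4.78, and 4.37 in control replicates 1, 2, and 3 and 2.04, 2.17, and 2.38 in case replicates 1, 2, and 3. This gave 4.58 ± 0.203 and 2.20 ± 0.175 (SD, n = 3), with no overlap. The ratio to *DNAJA1* was 4.58, 4.66, and 4.51 in control replicates 1, 2, and 3 and 2.30, 1.84, and 1.95 in case replicates 1, 2, and 3. Both ratios were lower in each case library than in each control library, with log2 differences of -1.06 and -1.18. Within class B, the ratio of *DNAJB4* to *DNAJB1* was 0.338, 0.391, and 0.335 in control replicates 1, 2, and 3 and 0.189, 0.298, and 0.265 in case replicates 1, 2, and 3, and that of *DNAJB5* to *DNAJB1* was 0.0828, 0.0907, and 0.0893 in control replicates 1, 2, and 3 and 0.0707, 0.0665, and 0.0584 in case replicates 1, 2, and 3. For each of the 4 ratios the exact permutation test gave a two-sided p = 0.1 (0.1 after adjustment over the 4). That is the smallest p this test allows with 3 against 3 libraries, so the permutation test cannot reach 0.05 here. The genes of these ratios were chosen with their changes known.

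J-domain genes outside the naming rule were read beside the members. Over all tested genes, limma called 13.2%, voom called 20.3%, and 33.1% had an unadjusted p under 0.05 by limma. On lists as short as these the counts are descriptions only. Of 3 J-domain genes with other symbols, 0 were called by limma, with 1 higher and 1 lower at an unadjusted p under 0.05, and voom called 0. These were *HSCB* of iron-sulfur cluster assembly (log2 fold change 0.40, SE 0.13, adjusted p = 0.0817), *GAK*, the widely expressed relative of auxilin (log2 fold change -0.25, SE 0.09, adjusted p = 0.0903), and *SEC63* of the translocon (log2 fold change 0.00, SE 0.18, adjusted p = 0.989). Of the 4 members of the endoplasmic reticulum lumen that were set apart, 0 were called by limma or voom (0 at an unadjusted p under 0.05), with log2 fold changes of 0.21 for *DNAJB9*, 0.16 for *DNAJB11*, -0.41 for *DNAJC3*, and 0.10 for *DNAJC10*.

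Reads can be split between near-identical copies and between overlapping genes. Pseudogenes are named after 8 members, among them 9 of *DNAJC19*, 8 of *DNAJB6*, 6 of *DNAJA1*, and 4 of *DNAJC8*, and 21 members share exonic bases with another annotated gene. The values of these members are uncertain to that extent. *DNAJB4* shares 78 bases with *GIPC2* on the same strand, which had a mean FPKM of 0.0356. *DNAJB5* and *DNAJC13* overlap no exon of another gene.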

How the data were processed

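The 6 HK-2 libraries (3 control and 3 case) were measured by RNA sequencing. The deposited values are FPKM. For these, the authors' reads were aligned to GRCh38.p13 with HISAT2 2.1.0 and counted per gene with HTSeq 0.6.0, per the labels and the study's methods, and divided by gene length and library reads. The authors tested counts with DESeq2, and those results were not used. RNA selection, strand, and annotation version are not given in the sources used here.

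The values hold whole reads: all 27922 genes above 0 resolved to whole multiples (within 9.57e-05 of a read), and exon lengths set their common factor. The implied length was within 1% of GENCODE for 53.8% of the genes with over 50 reads in each library, so depths rest on the typical gene. FPKM were divided by median-of-ratios factors computed over tested genes, taken to log2 after 0.1 was added, filtered at a mean FPKM of 0.5, and fitted by limma 3.58.1 with an intensity trend in R 4.3.3, with p-values adjusted over 13599 genes by the Benjamini-Hochberg method. Symbols and positions came from GENCODE 44 for 29063 genes. Promoters came from RefSeq. Single ratios were compared by exact permutation tests. The members and lists were chosen with earlier results of these data known.

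Values in every library are given for called members, for the 3 largest changes and the 2 most abundant members of each class, and for some other members of a role group. The rest are given as log2 fold changes. In other lists the called genes, the 2 most abundant, and the 2 largest changes were taken. Tested on simulated data for case against control with 13591 genes, limma recovered 18.2%, 80.6%, and 91.0% of genes changed by 0.5, 1, and 2 on the log2 scale with 7 false calls, and voom recovered 48.5%, 91.0%, and 95.5% with 5. Alternatives were pseudocounts of 1 and 0.01, no filter, a mean FPKM of at least 1, unscaled FPKM, TPM, quantile normalization, no trend, robust estimation, a replicate block, voom on the reads, and leaving out each library. Corrections for gene length (alone and with the block) and GC, and factors from all genes, were added after seeing the data.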

Additional observations from a re-analysis of the deposited data

How the results depend on the processing

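Called J-domain genes kept their sign under all alternatives run. Partner and marker genes were refitted with all other genes, but their single values under the alternatives are not given here. *DNAJC14* was called in all 15 alternatives with 6 libraries, *DNAJB4* in 13, *DNAJB5* in 8, and *DNAJC9* in 8, and no class A gene in any. *DNAJC13* was called lower in 4 and *DNAJC5* in 6. On the simulated data, limma recovered 18.2% of changes of 0.5 on the log2 scale. The simulation gave all genes and both groups the same dispersion (0.00838). In the measured libraries the case group was more spread than control (median SD 0.19 and 0.09 over all tested genes). The simulated share may therefore not hold for these data. Genes with few reads, such as *DNAJC28*, have wide intervals. The causes of the shifts below were not tested.

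Over all genes, 998 higher and 794 lower became 347 and 177 without the filter, 383 and 2387 on TPM, 436 and 416 without the trend, and 1766 and 1477 after GC correction. Unscaled FPKM gave 662 higher, and voom 1483 lower. Class B had 1 higher after GC correction. Its 2 lower became 0 without the filter or the trend, and 1 after quantile normalization, with factors from all genes, and after length correction. Class C had 0 higher without the filter, unscaled, on TPM, or without the trend. Its 1 lower became 2 at a mean FPKM of at least 1, unscaled, or after quantile normalization, and 3 on TPM, by voom, or after GC correction. Of the HSP70 and exchange factor genes, 2 higher became 0 without the filter and on TPM, 1 unscaled and without the trend, and 5 after GC correction. The 5 lower became 9 on TPM and 8 by voom. The class A median of 0.068 became -0.008 unscaled, -0.131 on TPM, and -0.038 after quantile normalization. The class B median of -0.07 became -0.27 on TPM and -0.21 after quantile normalization. The class C median became -0.18 on TPM.

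Same-numbered control and case libraries did not deviate together (correlations across genes of 0.06, 0.10, and -0.05), so the numbers are not taken as pairs. With the replicate number as a block, 1610 genes were called (848 higher and 762 lower), with 1 lower in class B and 0 higher and 2 lower in class C. The replicate block with length correction gave 532 higher and 373 lower, 1 lower in class B, 0 higher in class C, and 0 higher partners.

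Leaving out 1 library gave 55 to 1813 higher and 14 to 1682 lower genes. The ranges were 0 to 1 higher and 0 to 2 lower in class B, 0 to 2 higher and 0 to 2 lower in class C, and 0 to 5 higher and 3 to 8 lower among partners. Counting 50 bases after the start site as promoter gave 8 members with 2 units (19.1% of 47 member promoters, beside 13.5% of all promoters). With 3 units there were 2 members, *DNAJA1* and *DNAJB6* (4.26% of member promoters, beside 0.49% of all). Shares of the pool over tested members alone differed by less than the spread between libraries.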
